A study of Mus musculus with 6 samples.

Results

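The genes described here encode the ubiquitin-conjugating enzymes, ubiquitin ligases, derlins and partner proteins of the endoplasmic reticulum (ER) membrane that are of interest in the testis: Ube2j1, Ube2j2, Ube2g2, Rnf133, Rnf148, Derl1, Derl2, Derl3, Rhbdd1 and Aup1. They were chosen by name and not by a cutoff on these counts, as 10 of the 55536 genes counted, although earlier results of these data were known. Of these, 2 are known for transcripts largely restricted to the testis (Rnf133 and Rnf148) and 7 for transcripts in most tissues (Ube2j1, Ube2j2, Ube2g2, Derl1, Derl2, Rhbdd1 and Aup1). Derl3, which is known from secretory cells, was kept apart from both classes. The classes come from general knowledge, as all libraries were made from testis and cannot show tissue restriction.

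RNA was sequenced from the testes of 6 mice at 7 weeks of age, 3 KOStra8 and 3 HETStra8, in separate libraries. The KOStra8 genotype is Sel1Lflox/∆ with the Stra8-Cre transgene, whose promoter is active in male germ cells, so that Sertoli and other somatic cells keep the floxed allele, and recombination in spermatogonia is only partial according to the study. The record of the series gives the HETStra8 littermates as Sel1Lflox/∆ with no mention of Cre, whereas the study also counts Sel1Lflox/+ mice that have Stra8-Cre as HETStra8, and the genotype of each mouse is not given. Both groups therefore carried a reduced dose of Sel1L, and no wild-type testis was among the libraries. The libraries held 28875108 to 36526695 counts, and 21465 genes passed the filter on low counts, all 10 members among them. Sel1l, the targeted gene, was at 49.3, 47.6 and 42.4 CPM (counts scaled to a common library size) in the HETStra8 testes, in the order of mouse number kept throughout, and at 24.2, 22.0 and 20.3 CPM in the KOStra8 testes. It was lower in every KOStra8 testis, with a log2 fold change of -1.07 ± 0.104 (SE, n = 3 per group) and an adjusted p of 0.00061 by edgeR's quasi-likelihood test, so the labels and the counts of the targeted gene pointed the same way.

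ER-associated degradation (ERAD) removes misfolded proteins from the ER: a membrane-bound ubiquitin ligase (E3), supplied by a ubiquitin-conjugating enzyme (E2), marks the protein while it is drawn through the membrane into the cytosol for the proteasome. SEL1L is the partner of the ligase HRD1, and derlins, which are rhomboid-like proteins without protease activity, help to form the path across the membrane. In the testis this machinery meets germ-cell ligases of its own, RNF133 and RNF148, and mice without the E2 UBE2J1 are known for male infertility.

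To see what the upstream sequences of the testis-restricted genes look like beside those of a ubiquitous gene, the 250 bases upstream of annotated start sites were read from RefSeq (GRCm38.p6). Of the 10 genes, 7 had such a window, and Ube2g2, Derl1 and Aup1 were not matched. The window of Ube2j1 lies on the + strand at chr4:33031130-33031379, those of Rnf133 and Rnf148 on the - strand at chr6:23650306-23650555 and chr6:23655137-23655386, and that of Derl3 on the + strand at chr10:75893148-75893397. They are printed 5′ to 3′ along the gene, because the CpG-rich window of Ube2j1 and the CpG-poor windows of Rnf133 and Rnf148 differ visibly in base composition, and because Derl3 holds a match to the ER stress response element. Capitals mark CpG dinucleotides in Ube2j1, the longest run shared by the Rnf133 and Rnf148 windows in those genes, and the ER stress response element in Derl3.
Ube2j1: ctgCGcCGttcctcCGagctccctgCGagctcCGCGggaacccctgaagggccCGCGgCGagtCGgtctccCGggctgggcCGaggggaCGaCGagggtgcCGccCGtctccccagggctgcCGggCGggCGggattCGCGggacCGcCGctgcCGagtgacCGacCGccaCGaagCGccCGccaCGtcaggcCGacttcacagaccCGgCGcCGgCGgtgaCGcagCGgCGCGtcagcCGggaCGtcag
Rnf133: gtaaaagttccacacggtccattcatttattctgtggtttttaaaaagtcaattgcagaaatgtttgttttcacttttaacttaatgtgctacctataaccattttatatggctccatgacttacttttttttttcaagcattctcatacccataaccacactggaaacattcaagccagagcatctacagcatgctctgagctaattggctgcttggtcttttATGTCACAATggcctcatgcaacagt
Rnf148: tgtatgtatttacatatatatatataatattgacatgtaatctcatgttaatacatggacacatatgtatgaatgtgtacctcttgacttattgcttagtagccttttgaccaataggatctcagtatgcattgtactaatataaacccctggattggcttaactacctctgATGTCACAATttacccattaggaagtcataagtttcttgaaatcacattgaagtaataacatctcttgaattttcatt
Derl3: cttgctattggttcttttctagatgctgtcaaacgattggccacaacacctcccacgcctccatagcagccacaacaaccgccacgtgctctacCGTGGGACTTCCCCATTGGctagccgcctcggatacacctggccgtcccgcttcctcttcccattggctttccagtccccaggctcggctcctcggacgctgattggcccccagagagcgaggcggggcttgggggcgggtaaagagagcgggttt

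The Ube2j1 window held 41 CpG dinucleotides at a GC content of 77.2%, whereas the Rnf133 window held 1 CpG at 36.8% and the Rnf148 window held 0 at 30.8%. Over all 32851 windows of the annotation the median was 6 CpG and 52.4% GC. The windows of the ubiquitous genes were mostly CpG-rich, with 17 and 42 CpG in the windows of Ube2j2, 17 and 19 in those of Derl2 and 20 and 4 in those of Rhbdd1. Derl3 held 16. The pair of testis-restricted genes shared a longest run of 10 bases, ATGTCACAAT, which lay 26 to 17 bases upstream of the Rnf133 start and 78 to 69 bases upstream of the Rnf148 start. This run was found by comparing those windows, and 0.134% of all windows hold it on either strand. That share does not tell how often other pairs of windows share a run of this length, which was not tested. The ER stress response element, searched on both strands as CCAAT and CCACG with any 9 bases between them, was found among the members only in Derl3, 156 to 138 bases upstream on the opposite strand, and in 0.113% of all windows. The second form of that element, ATTGG and CCACG with any 1 base between them, was in none of the 10 windows of the members and in 0.0304% of all windows. The cAMP response element TGACGTCA was likewise in none of the members' windows and in 1.55% of all windows, and its core TGACG was found 4 times in Ube2j1, once in a window each of Ube2j2 and Rhbdd1, and in 17.8% of all windows. The CCAAT box, CCAAT, which is part of the ER stress response element, was in windows of Rnf133, Rnf148, Derl2 and Derl3 and in 33.8% of all windows. These matches describe letters in the windows, and binding was not measured.

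Levels of different genes were compared per length, as CPM per kilobase of the gene's merged exons. Rnf133 had the highest level of the 10 genes, with 153 ± 5.43 CPM per kilobase in HETStra8 and 151 ± 3.53 in KOStra8 testes (SD, n = 3 each). Ube2j1 came next at 106 ± 4.56 and 102 ± 1.20, followed by Rnf148 at 39.7 ± 3.58 and 42.4 ± 3.79. The other 7 genes had means over the 6 testes of 23.0 CPM per kilobase for Aup1, 17.1 for Ube2j2, 15.4 for Ube2g2, 13.8 for Derl1, 11.8 for Derl3, 10.6 for Rhbdd1 and 5.60 for Derl2. The median over the 21465 genes tested was 2.76 CPM per kilobase, so all 10 genes lay above it, from the 64.1th percentile for Derl2 to the 98.5th for Rnf133. The steps from Rnf133 to Ube2j1 (1.47-fold), Ube2j1 to Rnf148 (2.52-fold), Rnf148 to Aup1 (1.79-fold), Aup1 to Ube2j2 (1.34-fold) and Rhbdd1 to Derl2 (1.90-fold) were larger than the spread between mice, with no overlap of the ranges in either genotype. Between Ube2j2 and Ube2g2, Ube2g2 and Derl1, Derl1 and Derl3, and Derl3 and Rhbdd1 the ranges of the HETStra8 testes overlapped. The ranges of the KOStra8 testes did not overlap at any of these 4 steps. Both genes of a step were measured in the same libraries, so overlapping ranges do not show equal levels. The upper gene of each step was higher in 6 of 6 libraries, except Derl1 over Derl3 with 5 of 6. The order was the same in both genotypes.

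**Figure D1:**
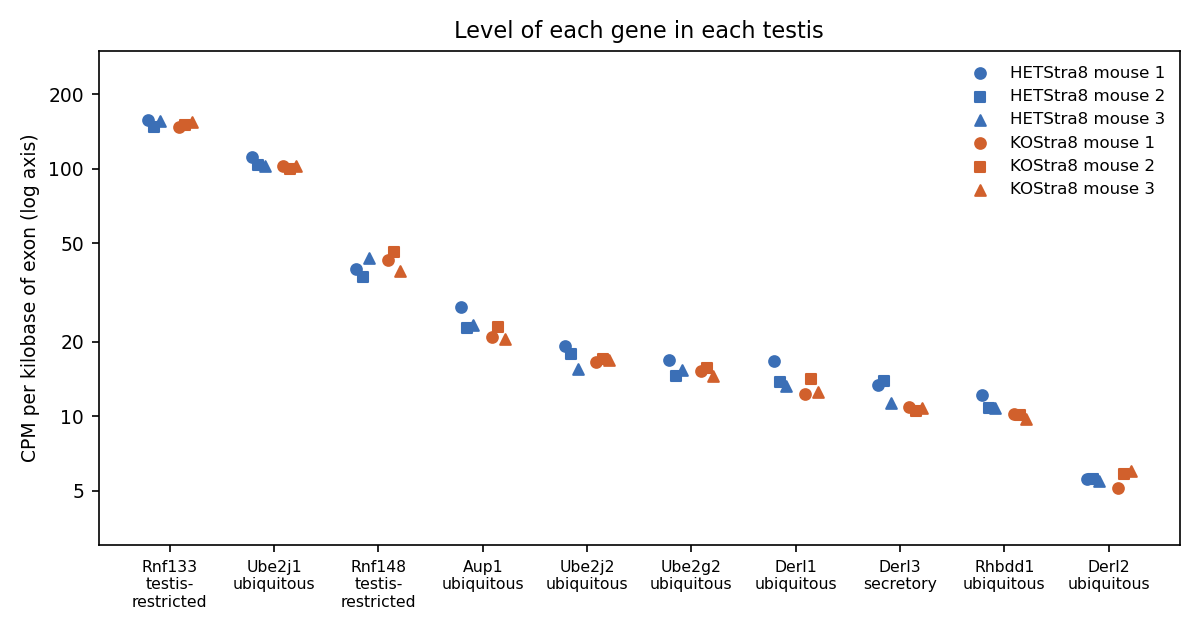
Level of each of the 10 genes in each testis, as TMM-normalized CPM per kilobase of merged exon on a log axis, with HETStra8 mice in blue and KOStra8 mice in orange and 1 point per mouse. Rnf133 and Ube2j1 lie above 100 CPM per kilobase in every testis, Rnf148 between 36.4 and 46.1, and Derl2 lowest at 5.14 to 6.01.

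The order depends in part on the length used. With the longest annotated transcript in place of merged exons, Rnf133 and Ube2j1 stayed first and second and Derl2 last, but Aup1 (41.2 CPM per kilobase) came level with Rnf148 (41.1), and Rhbdd1 moved from ninth to sixth at 20.1. Derl3 (17.8 CPM per kilobase) then lay above Derl1 (14.4), the reverse of their order by merged exons. Aup1, Derl2, Derl3 and Rhbdd1 have many exon bases outside their longest transcript, while Rnf148 and Ube2j1 have none.

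The testis-restricted genes together had a median of 96.5 CPM per kilobase (41.1 and 152) and the ubiquitous genes a median of 15.4 (5.60 to 104). Within each library the ratio of these medians was 5.81, 6.31 and 6.46 in the HETStra8 and 6.25, 6.28 and 6.64 in the KOStra8 testes. It overlapped between the genotypes and averaged 6.29, or 5.16 with the length of the longest transcript. The classes did not separate, as Ube2j1, a ubiquitous gene, lay above Rnf148 in all 6 testes, and the ratio of Ube2j1 to its nearest relative Ube2j2 was 5.79 to 6.67 per length.

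Among the E2 enzymes, Ube2j1 (ENSMUSG00000028277, chr4:33031416-33052363, + strand, GRCm38) encodes a tail-anchored E2 of the ER membrane that works with HRD1. It was at 392, 365 and 364 CPM in HETStra8 and at 361, 354 and 360.5 CPM in KOStra8 mice. The KOStra8 testes all lay below the HETStra8 testes, although mice 2 and 3 of HETStra8 were only just above. The log2 fold change was -0.06 ± 0.0656 (SE), with a 95% interval of -0.20 to 0.08 and an adjusted p of 0.754 by edgeR.

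Ube2j2 (ENSMUSG00000023286, chr4:155943831-155959604, + strand), the other tail-anchored E2, was at 84.5, 78.6 and 68.1 CPM in HETStra8 and at 72.7, 74.7 and 74.5 CPM in KOStra8 mice. The KOStra8 values lay inside the HETStra8 range, with a log2 fold change of -0.06 (95% interval -0.25 to 0.13). Of the 50-base sequences of its transcripts, 9.98% also occur in other genes, chiefly in Gm5801, whose counts varied from 5 to 166 between the testes of both genotypes. Ube2g2 (ENSMUSG00000009293, chr10:77622275-77645993, + strand) encodes a soluble E2 that is brought to the ER by membrane partners. It was at 41.0, 35.3 and 37.5 CPM in HETStra8 and at 37.0, 38.0 and 35.4 CPM in KOStra8 mice. The groups overlapped, and the log2 fold change was -0.04 (95% interval -0.24 to 0.16). Ube2g2 overlaps the annotated genes Gm49325 and Mir1930 on the same strand, both of which had 0 counts in every library.

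The ligases Rnf133 (ENSMUSG00000051956, chr6:23648869-23650305, - strand) and Rnf148 (ENSMUSG00000078179, chr6:23653898-23655136, - strand) are single-exon neighbours whose starts are 4831 bases apart. Both encode ligases with a protease-associated domain, a transmembrane segment and a RING finger (PA-TM-RING). Both lie inside the span of Cadps2 on the same strand without touching its exons, and Cadps2 itself had 80 to 148 counts per library. No 50-base sequence of either gene occurs in another gene. Rnf133 was at 226, 211 and 223 CPM in HETStra8 and at 212, 216 and 222 CPM in KOStra8 mice. The KOStra8 testes lay within the HETStra8 range. With a log2 fold change of -0.02 ± 0.0681 (SE) and a 95% interval of -0.17 to 0.12, the interval spanned 0.890-fold to 1.09-fold.

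Rnf148 was at 48.5, 45.1 and 53.9 CPM in HETStra8 and at 52.8, 57.2 and 47.8 CPM in KOStra8 mice. The highest value was that of KOStra8 mouse 2 and the lowest that of HETStra8 mouse 2, and the groups overlapped. The log2 fold change was 0.10 ± 0.0985 (SE), with a 95% interval of -0.11 to 0.31 and an adjusted p of 0.724 by edgeR. It was 0.04 without mouse 2 of either group, 0.16 without KOStra8 mouse 3 and 0.18 without HETStra8 mouse 3. The ratio of Rnf133 to Rnf148 per length was 3.88 ± 0.259 in HETStra8 and 3.58 ± 0.391 in KOStra8 testes (SD, n = 3 each) and overlapped between them. The ratio of Ube2j1 to Rnf133, which are known as partners, was 0.691 ± 0.0248 and 0.673 ± 0.0170 in the same testes and varied only from 0.660 to 0.707 over all 6.

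**Figure D2:**
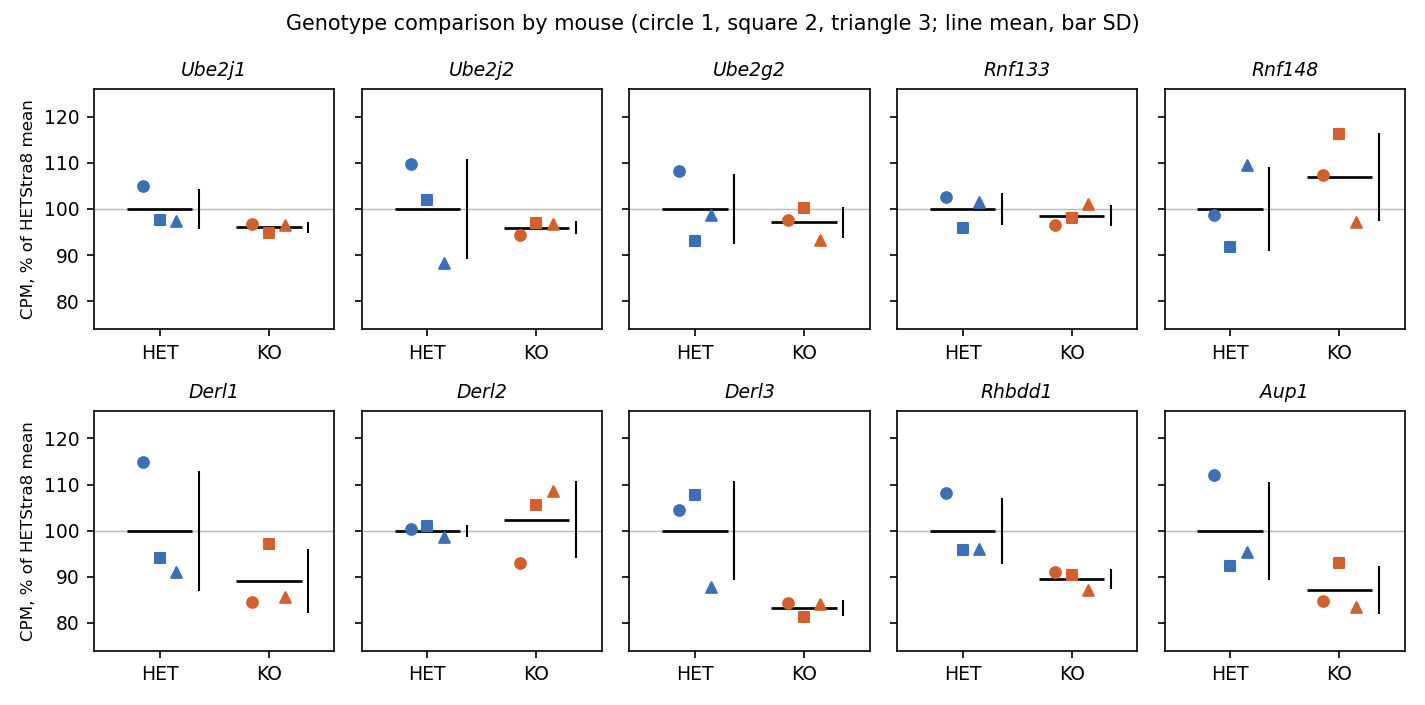
Each gene in each testis as CPM in percent of the HETStra8 mean, with mouse 1 as a circle, mouse 2 as a square and mouse 3 as a triangle, the line at the group mean and the bar at 1 SD on each side of it. Derl3 and Rhbdd1 have KOStra8 means of 83.2% and 89.6% without overlap of the groups, whereas Rnf133 has a KOStra8 mean of 98.5% within the HETStra8 range.

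Of the derlins, Derl1 (ENSMUSG00000022365, chr15:57869502-57892448, - strand) was at 55.7, 45.6 and 44.1 CPM in HETStra8 and at 41.0, 47.0 and 41.5 CPM in KOStra8 mice. KOStra8 mouse 2 lay among the HETStra8 values, and HETStra8 mouse 1 stood well above all others. On the log2 scale the difference was -0.17 (95% interval -0.39 to 0.06), or -0.06 without HETStra8 mouse 1. Of its 50-base sequences 5.56% occur in Gm35638, which had 0 to 10 counts per library.

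Derl2 (ENSMUSG00000018442, chr11:71007164-71019841, - strand) was at 44.7, 45.0 and 43.9 CPM in HETStra8 and at 41.4, 47.0 and 48.3 CPM in KOStra8 mice. The KOStra8 testes lay on both sides of the HETStra8 testes, with a log2 fold change of 0.03 (95% interval -0.16 to 0.23). Mis12, on the opposite strand, shares 231 of its exon bases (2.87%) and had 350 to 559 counts. The ratio of Derl1 to Derl2 per length was 3.01, 2.45 and 2.43 in HETStra8 and 2.40, 2.42 and 2.08 in KOStra8 mice, without overlap but with HETStra8 mice 2 and 3 only just above KOStra8 mouse 2. With 3 mice per group, 0.1 is the smallest two-sided p of an exact permutation test.

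Derl3 (ENSMUSG00000009092, chr10:75893413-75895941, + strand), the derlin of secretory cells that is known as a target of the unfolded protein response, had the largest log2 fold change of the 10 genes in size without correction for GC content. It was at 26.7, 27.6 and 22.5 CPM in HETStra8 and at 21.6, 20.8 and 21.5 CPM in KOStra8 mice, from 602 to 928 counts per library. All KOStra8 testes lay below all HETStra8 testes, with HETStra8 mouse 3 close to the KOStra8 range. The log2 fold change was -0.26 ± 0.109 (SE) with a 95% interval of -0.50 to -0.03, and edgeR gave an unadjusted p of 0.0297 and an adjusted p of 0.360, so Derl3 did not pass the correction over all genes. The exact two-sided permutation p was 0.1. With offsets for GC content and length, the value was -0.13 (95% interval -0.34 to 0.09), beside -0.15 for Rhbdd1 and -0.13 for Ube2j1. Plasma cells are known for high Derl3. Their 5 markers summed to 7.04 to 10.3 CPM in HETStra8 and 4.80 to 7.36 CPM in KOStra8 testes. Sdc1 was the highest of them, with a mean of 4.68 CPM. The log2 fold changes were -0.685 for Sdc1, -0.60 for Mzb1 and -0.55 for Ighm, but 0.51 for Jchain. Jchain was at 0.604, 0.565 and 0.810 CPM in HETStra8 and at 0.802, 0.898 and 1.12 CPM in KOStra8 mice. Tnfrsf17 was at 0 in the HETStra8 libraries and at most 0.0573 CPM in KOStra8. The part of plasma cells in the Derl3 values was not tested.

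Rhbdd1 (ENSMUSG00000026142, chr1:82316452-82445366, + strand), also known as RHBDL4, encodes an active rhomboid protease of the ER that cuts membrane proteins for ERAD. It was at 84.5, 74.7 and 74.99 CPM in HETStra8 and at 71.1, 70.6 and 68.0 CPM in KOStra8 mice. The KOStra8 testes all lay below the HETStra8 testes. On the log2 scale it differed by -0.16 ± 0.0824 (SE) with a 95% interval of -0.34 to 0.02, and edgeR gave an adjusted p of 0.446. The value was -0.15 with the GC and length offsets and -0.10 without HETStra8 mouse 1. Gm22112, Gm28940 and Gm19552 lie within its span without touching its exons and had 0 to 6 counts.

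Aup1 (ENSMUSG00000068328, chr6:83054521-83057808, + strand) encodes the membrane protein that binds UBE2G2 and is also found on lipid droplets. It was at 90.2, 74.4 and 76.7 CPM in HETStra8 and at 68.1, 74.9 and 67.2 CPM in KOStra8 mice. KOStra8 mouse 2 lay between HETStra8 mice 2 and 3, so the groups overlapped. The log2 fold change was -0.20 ± 0.0922 (SE), with an unadjusted p of 0.0482 and an adjusted p of 0.403 by edgeR, and was -0.05 with the GC and length offsets. Without HETStra8 mouse 1, its highest library, the value was -0.11 (unadjusted p 0.214 by edgeR). Its unadjusted p was 0.0551 with DESeq2, 0.0530 with limma-voom and 0.0629 with the mouse number as a block. Aup1 shares 753 exon bases, 23% of its own, with Htra2 on the opposite strand, and Htra2 was given 384 to 422 counts against 2167 to 2836 for Aup1. Whether the counting used the strand is not given in the sources used here.

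**Figure D3:**
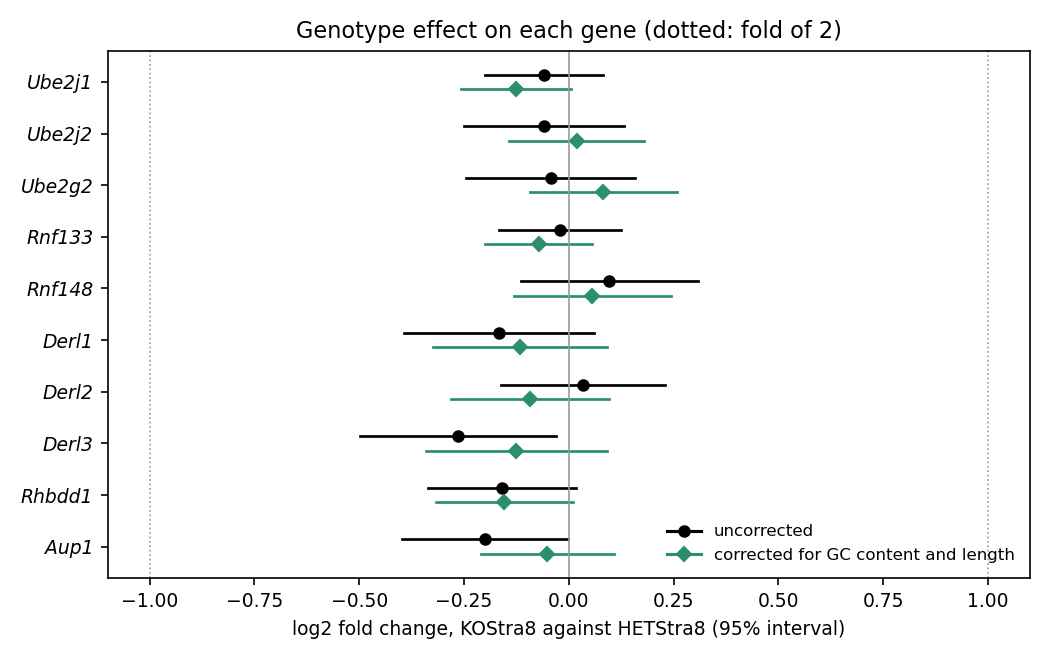
Log2 fold change of KOStra8 against HETStra8 testes for each gene with its 95% interval, uncorrected (black circles) and corrected for GC and length (green diamonds). Every interval lies between the dotted lines at a fold of 2, and the uncorrected intervals of Derl3 and Aup1 exclude 0, whereas all corrected intervals include it.

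Of the 10 genes, 0 passed both cutoffs of the study (a 2-fold difference with an adjusted p of 0.01) by edgeR, as did 0.00932% of all genes tested, and 0 passed an adjusted p of 0.05, as did 0.0233%. That share rests on 5 genes, and without HETStra8 mouse 3 it would be 868 higher and 214 lower genes, with 0 of the 10 members still. The study itself reported more genes past both of its cutoffs than edgeR gave here, and it names no test for the sequencing counts. It gave Ube2j1 and Rnf133 as unchanged. At an unadjusted p of 0.05, 2 of 10 genes passed, Derl3 and Aup1, both lower in KOStra8, where 12.3% of all genes tested passed in either direction with 5.12% passing as lower and 7.13% as higher. DESeq2 and limma-voom each gave 1 gene at that unadjusted threshold and 0 at an adjusted p of 0.05. In 3 of 10 genes (Ube2j1, Derl3 and Rhbdd1) all KOStra8 testes lay below all HETStra8 testes, against 8.43% of all genes tested, and in 0 all lay above, against 9.33%. A log2 fold change below 0 was found in 8 of 10 genes, with a median of -0.06, and in 51.5% of all genes tested, with a median of -0.01. The log2 fold changes of the 10 genes had a median of 0.08 without regard to sign, beside 0.16 over all genes tested. All 10 genes lay above the median level of the genes tested, and these sizes were not compared at like levels. The widest interval, that of Derl3, reached 0.708-fold, so an effect of a fold of 2 lay outside the interval of each gene.

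The genotype effect was then compared between the classes. The testis-restricted genes had log2 fold changes of -0.02 and 0.10, with a median of 0.04, and the ubiquitous genes ranged from -0.20 to 0.03, with a median of -0.06 and 6 of 7 below 0. For each of the 14 pairs of a testis-restricted and a ubiquitous gene, the log2 ratio of the pair was compared between the groups. The KOStra8 minus HETStra8 difference of this ratio ranged from -0.05 for Rnf133 to Derl2 to 0.29 for Rnf148 to Aup1. In 12 pairs the groups overlapped, and in 2 pairs, Rnf148 to Aup1 and Rnf133 to Rhbdd1 (0.14), all KOStra8 testes lay above. The smallest exact permutation p was 0.1, or 0.467 after Benjamini-Hochberg adjustment over the 14 pairs, and a raw p below 0.1 cannot be reached with these numbers of mice. These pairs share genes and are not independent.

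The other ERAD genes and the closest relatives give the frame for these values. Of 39 further ERAD genes, all of which were tested, 1 passed the cutoffs, Sel1l itself. At an unadjusted p of 0.05, 1 was higher (Svip) and 5 were lower (Sel1l, Herpud1, Nploc4, Bag6 and Usp19). Of all genes tested, 7.13% passed that threshold as higher and 5.12% as lower. The log2 fold changes of the 39 genes had a median of -0.05, with 13 above and 26 below 0. Of all genes tested, 51.5% lay below 0. The most abundant per length was Bag6, a chaperone that holds retrotranslocated proteins in the cytosol, at 1489 ± 95.5 CPM in HETStra8 and 1258 ± 33.4 CPM in KOStra8 testes (SD, n = 3 each), with a log2 fold change of -0.24 and an adjusted p of 0.183 by edgeR. Next came Rnf139, an ER-resident ligase, at 539 ± 24.2 and 570.0 ± 28.9 CPM, and Herpud1, which binds HRD1, at 194 ± 10.4 and 169 ± 6.52 CPM. Rnf139, with a mean of 109 CPM per kilobase, was thus close to Ube2j1, and Syvn1, which encodes HRD1, was at 10.5 CPM per kilobase.

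Relatives of the 10 genes were 9 PA-TM-RING ligases, 10 rhomboid-like genes and 8 E2 genes, of which 26 of 27 were tested. With edgeR 0 passed the cutoffs or an adjusted p of 0.05, and with DESeq2 and limma-voom 0 passed the cutoffs. At an unadjusted p of 0.05, 1 was higher (Rnf13) and 3 were lower (Znrf4, Tmem115 and Ubac2). The shares over all genes tested were 7.13% higher and 5.12% lower. Among the PA-TM-RING genes the level per length was highest for Znrf4, at 285 CPM per kilobase, above Rnf133 and Rnf148, with Rnf167 at 19.1 and Rnf130 at 9.75. Znrf4, which is known from the testis as sperizin, was at 364 ± 36.5 CPM in HETStra8 and 310 ± 32.7 CPM in KOStra8 testes (SD, n = 3 each), with overlapping groups and an adjusted p of 0.327 by edgeR. The highest rhomboid-like genes were Rhbdd3 at 38.7, Ubac2 at 31.2 and Tmem115 at 22.3 CPM per kilobase, all above Rhbdd1 and the derlins. The highest E2 genes were Cdc34 at 127, Ube2n at 73.3 and Ube2k at 22.9 CPM per kilobase, so Ube2j1 was second only to Cdc34 among the E2 genes listed here.

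**Figure D4:**
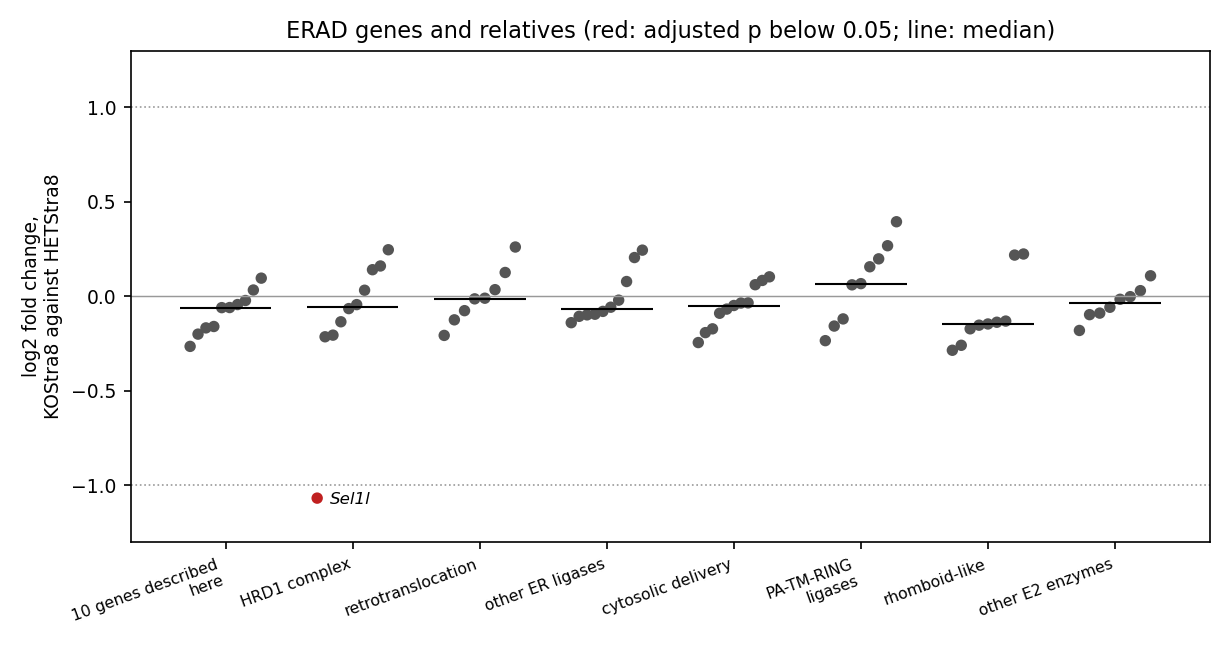
Log2 fold change of KOStra8 against HETStra8 testes for the 10 genes, for 39 further ERAD genes by function and for 26 relatives, with 1 point per gene and a line at the median of each group. Sel1l, at -1.07, is the only gene with an adjusted p below 0.05 (red) and the only one beyond the dotted lines at a fold of 2.

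Several properties of the libraries are given beside these values. HETStra8 mouse 1 had the highest CPM of the 6 libraries in 7 of 10 members, whereas it was highest in 25.4% of all genes tested. It also held epididymis markers, whose 5 genes summed to 10.8 CPM there and to 0.115 to 0.301 CPM in the KOStra8 testes, led by Crisp1 at 7.00 CPM there and at most 0.327 CPM in any other library. The SD between HETStra8 testes was larger than that between KOStra8 testes in 8 of 10 members and in 59.5% of all genes tested. The 5 spermatocyte markers summed to 817 to 1037 CPM in HETStra8 and to 1064 to 1112 CPM in KOStra8 testes, and the 5 Sertoli cell markers to 146 to 159 and to 135 to 144 CPM. The spermatocyte log2 fold changes were 0.97 for Sycp1, 0.49 for Sycp3, 0.44 for Hormad1, 0.15 for Spo11 and -0.02 for Piwil1, the highest in CPM. Those of the Sertoli cell markers ran from -0.35 (Amh) to -0.01 (Sox9). The smallest adjusted p of both lists by edgeR was 0.338 (Gata4). The summed round spermatid, elongating spermatid, spermatogonia, Leydig cell and macrophage markers overlapped between the groups, and no gene of these lists was at 0 in every library. In bulk testis, fewer cells of a type and less RNA per cell cannot be told apart, and the part of these markers and of HETStra8 mouse 1 in the lower values of Ube2j1, Derl3 and Rhbdd1 was not tested. Without HETStra8 mouse 1 the log2 fold changes of these 3 genes were -0.02, -0.23 and -0.10. Over all genes the log2 fold change fell with GC content (Spearman rho -0.46 over 21457 genes, given as a description). Among the 10 genes the longest transcripts of Derl3 (57.3% GC) and Aup1 (59.4%) had the highest GC content and log2 fold changes of -0.26 and -0.20. Ube2g2 was at 54.6% GC with -0.04 and Ube2j2 at 50.8% with -0.06. Derl1 at 49.3% and Rhbdd1 at 47.7% had -0.17 and -0.16. The lowest GC contents were those of Derl2 (42.9%), Ube2j1 (44.8%), Rnf133 (46.1%) and Rnf148 (46.4%). Their log2 fold changes were 0.03, -0.06, -0.02 and 0.10. No trend with GC content was tested over the members.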

How the data were processed

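Testis RNA of 6 mice was analysed, and separate mice serve as replicates. The authors deposited raw read counts per Ensembl gene, 1 file per mouse, without normalization. The submitters' processing notes name FastQC, Trimmomatic, STAR 2.7.1a, Picard 2.20.4, StringTie 2.0.4, featureCounts 1.6.0 and HTSeq with mm10/GRCm38. Their order and the strand setting are not given in the sources used here. All 55536 identifiers matched GENCODE mouse release M21, which gave symbols, positions, exon lengths and GC content.

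Counts were fitted in R 4.3.3 with edgeR 4.0.16 (filterByExpr, TMM, robust quasi-likelihood fit of genotype, two-sided F test, Benjamini-Hochberg adjustment over all 21465 genes tested). The common biological coefficient of variation was 0.160. CPM are TMM-normalized. Level percentiles are over all genes tested. The intervals around fold changes are at 95%, from the t distribution on the total degrees of freedom of the fit (residual plus prior). Single values were compared by an exact permutation test over mice. Shared sequence was counted in 50-base words of all annotated transcripts. The script was tested on simulated counts.

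The alternatives were DESeq2's size factors, library totals, other count filters, the replicate number as a block, GC and length offsets (loess per library, span 0.3, fitted above a log2 CPM of 2), DESeq2 1.42.0, limma-voom (limma 3.58.1), leaving out each mouse, and other length scales.

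The members, classes and gene lists were chosen with earlier results of these data known. The genes named are the 10 members, Sel1l, genes overlapping a member, and in each list those past an adjusted p of 0.05 and otherwise the 3 highest per length. Other genes, such as those at an unadjusted p of 0.05, Gm5801, Syvn1 and single markers, were named after their values were seen.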

Additional observations from a re-analysis of the deposited data

How the results depend on the processing

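The counts of members past the cutoffs and at an adjusted p of 0.05 were 0 under all 15 alternatives of fit, with adjusted p-values from 0.085 (Derl3, without HETStra8 mouse 3) upward. The number of members at an unadjusted p of 0.05 was 2 and became 1 with DESeq2's size factors, library totals, the filter of at least 10 counts, DESeq2 and limma-voom, 0 with the GC and length offsets, and 0 to 2 when 1 mouse was left out. Log2 fold changes changed sign for Ube2j2 (0.018 with the offsets, -0.13 to 0.011 when 1 mouse was left out, above 0 without HETStra8 mouse 1), Ube2g2 (0.083 with the offsets, -0.092 to 0.017 when 1 mouse was left out, above 0 without HETStra8 mouse 1) and Derl2 (-0.092 with the offsets, -0.011 to 0.11 when 1 mouse was left out, below 0 without KOStra8 mouse 3). The cause was not tested. Sel1l passed the cutoffs in every fit except without KOStra8 mouse 2 (adjusted p 0.0132) or mouse 3 (adjusted p 0.0120), so the number of further ERAD genes past the cutoffs was 0 to 1 when 1 mouse was left out. The ratio of class medians was 5.16 with the longest transcript in place of 6.29. The testis-restricted minus ubiquitous difference of median log2 fold changes was 0.10, and 0.065 to 0.22 when 1 mouse was left out, with 0.22 without HETStra8 mouse 3. With the offsets, 0 higher and 4 lower further ERAD genes and 0 higher and 6 lower relatives passed an unadjusted p of 0.05, beside 874 higher and 754 lower of all 21465 genes. Over all genes, 1 was higher and 1 lower past the cutoffs, against 22 and 17 without a filter, 4 and 1 with the block, 5 and 1 with DESeq2, 5 and 4 without HETStra8 mouse 1 and 42 and 2 without HETStra8 mouse 3. At an adjusted p of 0.05, 4 were higher and 1 lower, against 542 and 118 without a filter, 163 and 12 with the block, 306 and 48 with DESeq2, 30 and 2 with limma-voom, 40 and 21 without HETStra8 mouse 1 and 868 and 214 without HETStra8 mouse 3.

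Deviations of same-numbered mice from their group means correlated at -0.0601, -0.0525 and 0.108, and those of differently numbered mice at -0.116 to 0.155. The labels do not say whether mouse numbers pair the groups, and these few correlations cannot decide it. With the replicate number as a block, 1 member passed an unadjusted p of 0.05, and with the block and the offsets 0 did, with log2 fold changes of 0.021 for Ube2j2, 0.084 for Ube2g2 and -0.094 for Derl2. With 3 mice per group, an unchanged gene cannot be told from one that changed within the intervals given.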
